A study of Mus musculus with 10 samples.

Results

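The genes examined were those of the transforming growth factor beta (TGF-beta) system: the ligand genes *Tgfb1*, *Tgfb2* and *Tgfb3*, the receptor genes *Tgfbr1*, *Tgfbr2* and *Tgfbr3*, and the latent TGF-beta binding protein genes *Ltbp1*, *Ltbp2*, *Ltbp3* and *Ltbp4*. They were chosen by name, and all 10 were found among the 23080 genes of the deposited count table. The table holds bulk RNA-seq of the anterior fontanelle (AF) of the mouse at E18.5, the fibrous region between the frontal bones, dissected with the adjoining bone after skin and brain had been taken off. One group of 5 libraries is labelled WT, and a plot in the study names the controls of this experiment Fgfr2fl/fl, so whether the controls carry floxed alleles without Cre cannot be told from the labels. The other group of 5 is titled NCC Fgfr2 KO (neural crest cell knockout) with the genotype Wnt1-Cre; Fgfr2fl/fl, in which Cre under the *Wnt1* driver recombines *Fgfr2* in neural crest cells and what they form, including the frontal bones and AF mesenchyme, while blood, vessels and other cells of the dissection that are not of neural crest origin keep the allele. The study describes littermate pairs, and neither it nor the labels say which libraries form a pair. The comparison asks how expression in the AF differs between these genotypes.

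TGF-beta ligands are made as precursors that are cut into a growth factor and a propeptide, which stay bound to each other and keep the ligand latent. Latent TGF-beta binding proteins (LTBPs) attach this complex to the extracellular matrix, and integrins, thrombospondin or proteases release the ligand. Free ligand binds the type II receptor, which activates the type I receptor and through it SMAD2 and SMAD3. In cranial sutures the ligands act on osteoblasts and on the fibrous mesenchyme between the bones, and in bone matrix they are stored in large amounts.

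The libraries held 20774645 to 28515403 counts each, of which one ribosomal RNA gene took 18.6% to 33.5%. Members were covered by 760 to 8901 counts per library, so that counting error was small beside the biological coefficient of variation of 18.9% over all genes. *Fgfr2* itself was higher in mutant-labelled libraries, at 273 to 357 CPM (counts scaled to library size with TMM factors), than in control-labelled libraries, at 176 to 235 CPM, with no overlap (log2 fold change 0.67, SE 0.0902, adjusted p = 0.0487 by edgeR's quasi-likelihood test). That call is borderline, with an adjusted p-value of 0.427 with replicate numbers as a block, and of 0.0831 to 0.26 in the 8 of 10 fits with 1 library left out in which it was lost. Counts were summed over the locus, so recombined and intact transcripts were not separated. Since total *Fgfr2* went against the label, the names control-labelled and mutant-labelled are used, and each direction below is by label. The tissue markers were present: all 10 fibrous connective tissue markers and all 14 osteoblast markers were detected, at summed levels of 6372 to 10877 and 54501 to 78943 CPM. Neuron and glia markers stood out in one library, mutant-labelled replicate 2, at 389 CPM against 46.3 to 149 CPM in the other 9, and skeletal muscle markers reached 679 CPM in control-labelled replicate 2 and 672 CPM in mutant-labelled replicate 1 against 20.1 to 132 CPM elsewhere. In bulk tissue, fewer cells of a type and less RNA per cell cannot be told apart.

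None of the 10 members passed an adjusted p-value of 0.05 in edgeR's quasi-likelihood test over 16267 genes, in which 3 genes did (0.0184% of those tested, with 0.0123% higher and 0.00615% lower by label). The unadjusted p-value was under 0.05 for 2 members, *Tgfb1* (lower) and *Ltbp2* (higher), or 20% of the list against 7.49% of all genes tested (3.68% higher and 3.82% lower). In 0 members were the groups fully apart, against 1.48% of all genes tested (0.781% higher and 0.701% lower). The log2 fold change was above 0 for 7 members and below 0 for 3, and the median log2 fold change of the members was 0.0478, against 0.000728 for all genes tested.

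The sequence upstream of *Tgfb1*, *Tgfb2* and *Ltbp2* is shown because *Tgfb1* and *Ltbp2* are the members that differed most by label and *Tgfb2* is the ligand gene with the lowest level. Each is the 250 bases before the RefSeq transcription start on GRCm38.p6, written 5′ to 3′ on the strand of the gene, with GC boxes (GGGCGG on either strand, the site bound by SP family factors) and the TATA box (TATAAA on either strand) in capitals.
Tgfb1, chr7:25686752-25687001, plus strand: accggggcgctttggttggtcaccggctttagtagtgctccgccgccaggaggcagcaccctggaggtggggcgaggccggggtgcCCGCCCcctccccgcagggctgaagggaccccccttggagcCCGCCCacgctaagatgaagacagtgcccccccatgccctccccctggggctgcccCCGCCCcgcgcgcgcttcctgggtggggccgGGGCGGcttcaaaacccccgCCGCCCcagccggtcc
Tgfb2, chr1:186705990-186706239, minus strand: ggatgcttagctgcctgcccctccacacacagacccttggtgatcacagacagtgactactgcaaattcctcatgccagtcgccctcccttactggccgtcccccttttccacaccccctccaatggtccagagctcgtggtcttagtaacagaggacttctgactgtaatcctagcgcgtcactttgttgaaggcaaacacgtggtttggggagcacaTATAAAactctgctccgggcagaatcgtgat
Ltbp2, chr12:84876492-84876741, minus strand: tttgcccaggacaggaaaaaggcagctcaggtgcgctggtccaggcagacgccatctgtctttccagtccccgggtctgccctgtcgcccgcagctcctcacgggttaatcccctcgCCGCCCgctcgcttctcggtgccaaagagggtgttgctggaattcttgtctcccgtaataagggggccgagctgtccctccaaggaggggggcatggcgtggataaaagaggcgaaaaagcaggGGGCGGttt

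The *Tgfb1* window held 5 GC boxes and no TATA box, with a GC content of 75.2%, and the *Ltbp2* window held 2 GC boxes and no TATA box, with a GC content of 61.6%. The *Tgfb2* window held no GC box and 1 TATA box that begins 31 bases before the start, with a GC content of 53.6%. Among all 32851 promoter windows of this length, 32.7% held a GC box and 12.4% held a TATA box, and the median GC content was 52.4%. Of the 8 members with a window, 4 held a GC box in at least 1 window (*Tgfb1*, *Tgfbr1*, *Ltbp2* and *Ltbp4*), and *Tgfb2* was the one with a TATA box. These counts are by gene, with 3 windows for *Ltbp4* and 2 each for *Tgfbr1* and *Ltbp1*, whereas the shares of all windows are by window. The SMAD elements AGCCAGACA and GTCTAGAC were in none of these windows (0.301% and 0.167% of all windows), nor was the AP-1 element TGACTCA (4.46%), and the RUNX element TGTGGT was in one of the 2 *Ltbp1* windows (14%). These matches describe letters in a window and not bound sites.

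*Tgfb1* encodes the ligand that is abundant in bone matrix and platelets, and lies on chromosome 7 from 25687002 to 25705077 (GRCm38). Its level was 132, 125, 135, 150.3 and 147 CPM in control-labelled replicates 1 to 5, and 113, 102, 115, 111 and 133 CPM in mutant-labelled replicates 1 to 5. All mutant-labelled libraries but replicate 5 were below every control-labelled library, and replicate 5 lay among the controls. Means under the control and mutant labels were 138 ± 10.7 and 115 ± 11.4 CPM (SD, n = 5 in either), and the log2 fold change was −0.26 (95% interval −0.43 to −0.10). The unadjusted p-value from edgeR was 0.00498 and the adjusted p-value 0.432, and an exact two-sided permutation test on log2 CPM gave p = 0.0238. With any one library dropped the estimate lay between −0.32 and −0.22.

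Osteoblast markers were lower beside *Tgfb1*. The osteoblast score, the mean log2 CPM of 14 markers, was 8.39 to 8.76 in controls and 8.14 to 8.40 in mutants by label, and their summed level was 66589 to 78222 and 54501 to 78943 CPM. All 14 markers had a negative log2 fold change (median −0.285), with 8 under an unadjusted p-value of 0.05 and 0 under an adjusted one. With that score as a covariate, the log2 fold change of *Tgfb1* was −0.02 (edgeR, unadjusted p = 0.837, adjusted p = 1). Of the osteoclast markers, 7 of 8 were lower by label, beside 49.7% of all genes tested, with 1 under an unadjusted p-value of 0.05 and 0 under an adjusted one. Their summed level was 2260.3 to 3642 CPM in controls and 2511 to 2829 CPM in mutants. Markers of megakaryocytes and platelets, another source of *Tgfb1*, summed to 16.0 to 24.4 CPM in controls and 17.2 to 21.0 CPM in mutants, of which *Pf4* made up most (11.9 to 19.1 CPM in controls and 12.4 to 16.2 CPM in mutants), while *Ppbp*, *Gp9* and *Gp1ba* were each below 1 CPM.

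*Tgfb2*, on chromosome 1 from 186622792 to 186705989, encodes the ligand best known from craniofacial and dura-dependent suture development. It was at 35.4 to 47.5 CPM (median 40.7) under the control label and at 34.8 to 43.4 CPM (median 37.0) under the mutant label, ranges that overlapped, with control-labelled replicates 1 and 2 (47.5 and 43.8 CPM) above every mutant-labelled library. The log2 fold change was −0.11 (95% interval −0.30 to 0.08, adjusted p = 0.808 from edgeR). It was −0.04 without control-labelled replicate 1, and 0.00 without the 3 libraries high in neuron or muscle markers. *Tgfb3*, on chromosome 12 from 86056745 to 86079041, encodes the ligand required for palate fusion. It was at 133 to 162 CPM (median 144) and 129.7 to 172 CPM (median 157) by label, with a log2 fold change of 0.09 (95% interval −0.08 to 0.27, adjusted p = 0.826). For both ligands the interval includes no difference, and leaves room for one of about the size seen in *Tgfb1*. Exons of *Tgfb2* share 124 bases with *Gm29491*, and those of *Tgfb3* share 420 bases with *Gm37804* and *Gm48008*, all on the opposite strand, and whether counting used strand is not given in the sources used here.

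**Figure D1:**
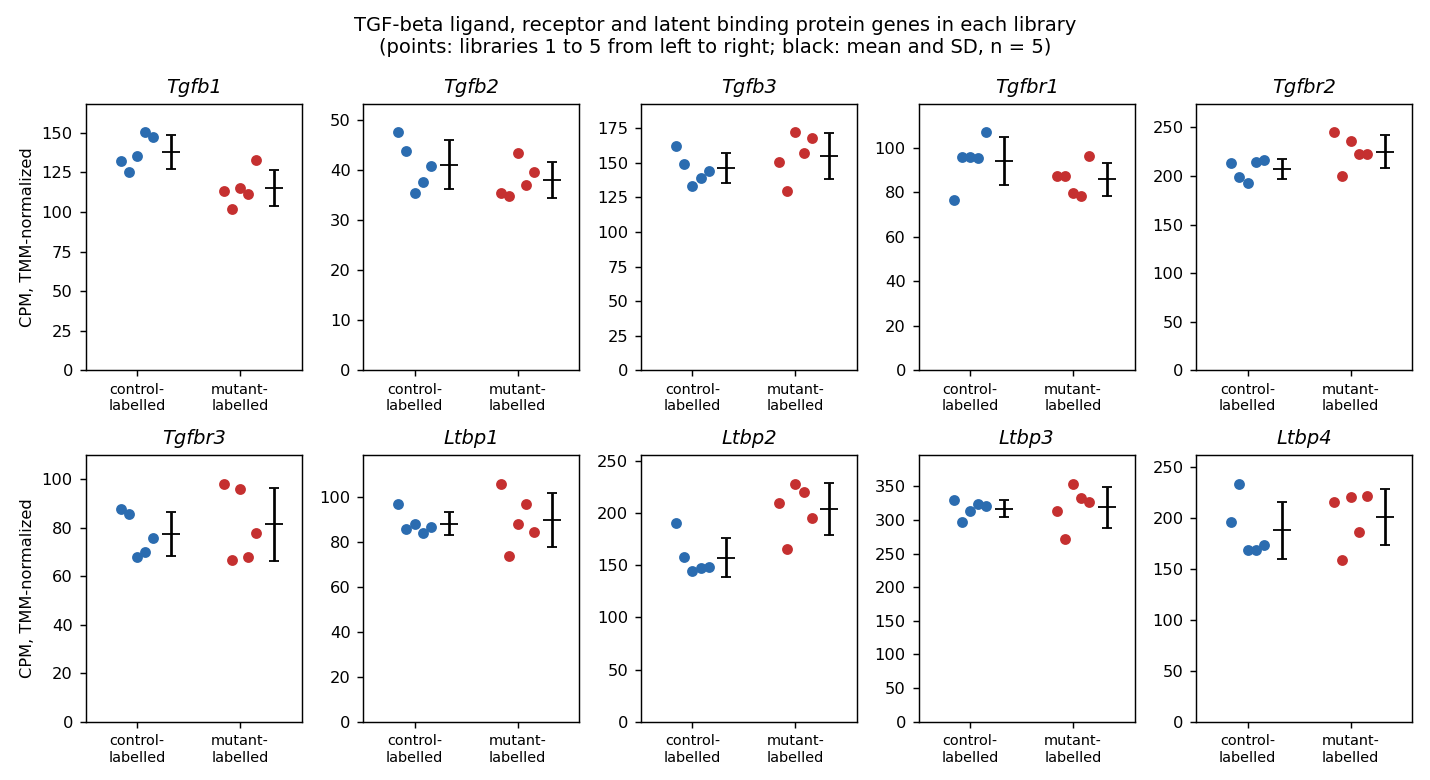
TMM-normalized CPM (vertical axes, from 0) of each of the 10 genes in the 5 control-labelled (blue) and 5 mutant-labelled (red) libraries, with replicates 1 to 5 from left to right and the mean and SD in black. *Tgfb1* points are mostly lower and *Ltbp2* points mostly higher in mutant-labelled libraries, *Tgfbr2* points are above every control in all mutant-labelled libraries but replicate 2, the other 7 genes show no such split, and mutant-labelled replicate 2 is the lowest of its group in 9 of the 10 panels.

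The *Tgfb1* and *Tgfb3* differences ran in opposite directions, so their ratio within a library, which does not depend on normalization, separated the groups. The log2 ratio of *Tgfb1* to *Tgfb3* per kilobase of exon was −0.87, −0.83, −0.56, −0.47 and −0.55 in control-labelled replicates 1 to 5, and −0.99, −0.92, −1.15, −1.08 and −0.91 in mutant-labelled replicates 1 to 5. Every mutant-labelled library was below every control-labelled library, by means of −1.01 ± 0.103 against −0.65 ± 0.183 (SD, n = 5 each). This ratio was one of 7 computed, of which 2 separated the groups, and it is given as a description with no test. Of the summed ligand transcripts per kilobase, *Tgfb3* made up 55.5% ± 2.26 under the control label and 61.0% ± 1.38 under the mutant label, *Tgfb1* 35.4% ± 3.01 and 30.3% ± 1.50, and *Tgfb2* 9.12% ± 0.774 and 8.74% ± 0.492 (SD, n = 5 each). On this length, though not on that of the longest transcript in controls, *Tgfb3* was the major ligand transcript under both labels.

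Among the receptors, *Tgfbr1* encodes the type I receptor kinase that phosphorylates SMADs and lies on chromosome 4 from 47353222 to 47414931. It was at 76.5, 95.9, 96.0, 95.6 and 107 CPM in control-labelled replicates 1 to 5, and at 87.5, 87.3, 79.8, 78.2 and 96.4 CPM in mutant-labelled replicates 1 to 5. Control-labelled replicate 1 was lower than every mutant-labelled library, and the other 4 controls lay at or above most mutants. The log2 fold change was −0.13 (95% interval −0.32 to 0.06, adjusted p = 0.748 from edgeR). Without control-labelled replicate 1 it was −0.19, with an unadjusted p-value of 0.0211 and an adjusted one of 0.590 from edgeR. Dropping control-labelled replicate 5 gave −0.08, and dropping mutant-labelled replicate 4 gave −0.09.

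*Tgfbr2* encodes the type II receptor, which binds ligand first, and lies on chromosome 9 from 116084293 to 116175360. It was at 213, 199, 193, 214 and 216 CPM in control-labelled replicates 1 to 5, and at 245, 199.8, 236, 223 and 223 CPM in mutant-labelled replicates 1 to 5. All mutant-labelled libraries but replicate 2 were above every control. The log2 fold change was 0.12 (95% interval −0.02 to 0.26, adjusted p = 0.679 from edgeR; exact permutation test, p = 0.0794). Without mutant-labelled replicate 2, the library high in neuron markers, it was 0.17, with an unadjusted p-value of 0.0114 and an adjusted one of 0.534 from edgeR.

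*Tgfbr3* encodes betaglycan, a co-receptor that presents ligand and in particular the product of *Tgfb2*, and lies on chromosome 5 from 107106570 to 107289629. It was the most variable of the receptors, at 67.8 to 88.0 CPM (median 75.9) under the control label and 66.7 to 98.3 CPM (median 78.1) under the mutant label. Its log2 fold change was 0.07 with an interval of −0.20 to 0.34 (adjusted p = 0.928 from edgeR), and it ran from 0.00 without mutant-labelled replicate 1 to 0.14 without mutant-labelled replicate 2 or 4. Within libraries the log2 ratio of *Tgfbr2* to *Tgfbr1* per kilobase was 0.68 to 1.15 in controls and 0.87 to 1.24 in mutants, and that of *Tgfbr3* to *Tgfbr2* was −1.28 to −0.89 and −1.39 to −0.97. Both ratios overlapped between labels. Exons of *Tgfbr3* share 297 bases with *Gm43422* on the same strand.

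**Figure D2:**
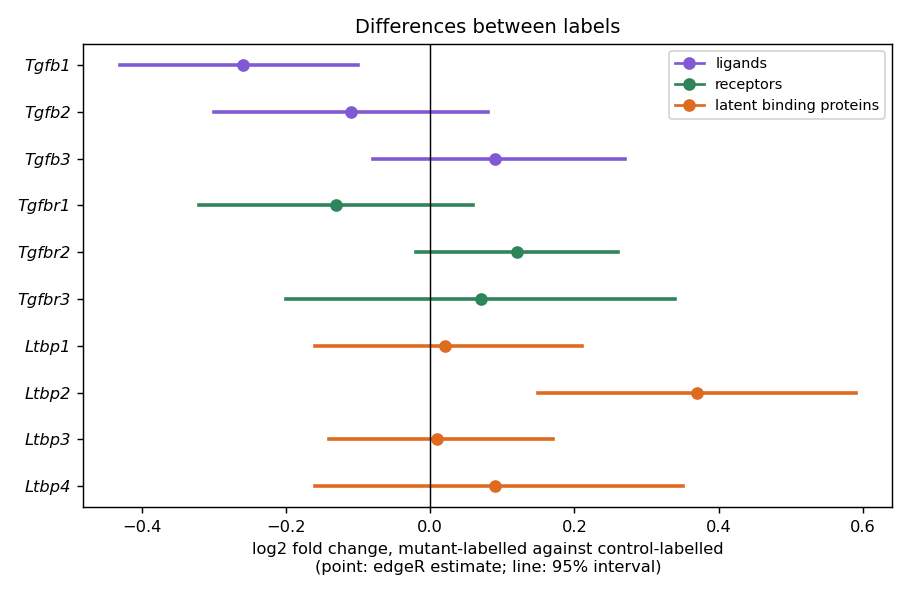
Log2 fold change (horizontal axis, mutant-labelled against control-labelled) of each gene with its 95% interval from edgeR, coloured by ligand, receptor or latent binding protein. The intervals of *Tgfb1*, from −0.43 to −0.10, and of *Ltbp2*, from 0.15 to 0.59, leave out 0, those of the other 8 genes include it, and no gene passed an adjusted p-value of 0.05.

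*Ltbp2* differed most of the members. It lies on chromosome 12 from 84783212 to 84876532 and encodes the family member that does not bind latent TGF-beta and instead associates with fibrillin microfibrils. It was at 190, 158, 144, 147 and 148 CPM in control-labelled replicates 1 to 5, and at 209.8, 165, 228, 220.1 and 195 CPM in mutant-labelled replicates 1 to 5. All mutant-labelled libraries but replicate 2 were above every control, and replicate 2 was above every control but replicate 1. Means under the control and mutant labels were 157 ± 18.8 and 204 ± 25 CPM (SD, n = 5 in either), and the log2 fold change was 0.37 (95% interval 0.15 to 0.59), or 1.29-fold. The unadjusted p-value from edgeR was 0.00317 and the adjusted p-value 0.410, and a two-sided exact permutation test gave p = 0.0159. The estimate stayed between 0.34 and 0.45 with any one library left out, and DESeq2's Wald test gave an adjusted p-value of 0.0514. Exons of *Ltbp2* share 764 bases with *D030025P21Rik* on the opposite strand.

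Most fibrous connective tissue markers were higher beside *Ltbp2*. The score of those 10 markers was 7.02 to 7.24 in controls and 7.07 to 7.45 in mutants by label, and their summed level was 7155 to 8720.3 and 6372 to 10877 CPM. By label 8 of the 10 were higher, with 4 under an unadjusted p-value of 0.05 and 0 under an adjusted one. Those 4 were *Scx* (log2 fold change 0.35), *Tnmd* (0.58), *Mkx* (0.31) and *Matn4* (0.64). The other markers ran from −0.04 (*Pdgfra*) to 0.17 (*Col3a1*). With this score as a covariate the log2 fold change of *Ltbp2* was 0.08 (edgeR, unadjusted p = 0.348, adjusted p = 0.766), whereas with the osteoblast score it was 0.37 (unadjusted p = 0.0586, adjusted p = 1). For *Tgfb1* the fibrous score left −0.32 (edgeR, unadjusted p = 0.0184, adjusted p = 0.264). Both scores differ in mean between the labels, so a covariate fit takes up part of the label difference by construction.

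*Ltbp1*, on chromosome 17 from 75005568 to 75392512, encodes a main carrier of latent ligand and was close to equal by label. It was at 83.9 to 96.9 CPM (median 86.5) under the control label and 73.8 to 106 CPM (median 87.9) under the mutant label, a log2 fold change of 0.02 with an interval of −0.16 to 0.21. *Ltbp3*, on chromosome 19 from 5740904 to 5758532, encodes another carrier, whose loss in mice alters skull and bone growth. It was at 297 to 329.9 CPM (median 321) and 271 to 354 CPM (median 326), a log2 fold change of 0.01 with an interval of −0.14 to 0.17. The mutant-labelled libraries covered a wider range than the controls for both genes. *Ltbp4*, on chromosome 7 from 27305136 to 27337692, encodes a carrier that also assembles elastic fibres. It was at 169 to 234 CPM (median 174) and 159 to 222 CPM (median 216), a log2 fold change of 0.09 with an interval of −0.16 to 0.35. Control-labelled replicate 2 was the highest of its group at 234 CPM, and without it the estimate was 0.19 (edgeR, unadjusted p = 0.0848, adjusted p = 0.637). The adjusted p-values of the 3 genes ran from 0.887 to 0.983 by edgeR.

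The log2 ratio of *Ltbp2* to *Ltbp1* per kilobase was the other ratio that separated the groups. It was 1.36, 1.27, 1.10, 1.20 and 1.16 in control-labelled replicates 1 to 5, and 1.38, 1.54, 1.76, 1.57 and 1.59 in mutant-labelled replicates 1 to 5. The gap between the highest control and the lowest mutant was narrow, 1.36 against 1.38. *Ltbp2* made up 21.0% ± 1.40 of the summed LTBP transcripts per kilobase under the control label and 25% ± 1.16 under the mutant label, *Ltbp3* 38.3% ± 2.83 and 35.4% ± 1.27, *Ltbp4* 31.7% ± 3.32 and 31.2% ± 2.01, and *Ltbp1* 9.02% ± 0.439 and 8.44% ± 0.833 (SD, n = 5 each). These shares are given without a test.

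**Figure D3:**
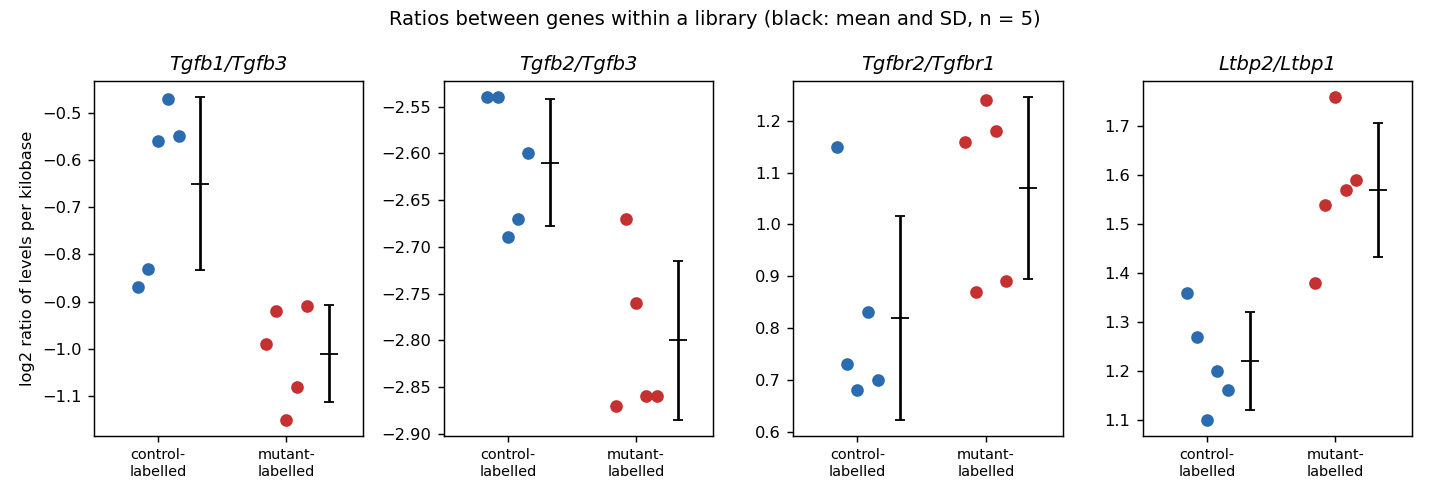
Log2 ratio of levels per kilobase (vertical axes, log scale not starting at 0) between 2 genes of the same library, in control-labelled (blue) and mutant-labelled (red) libraries with the mean and SD in black. *Tgfb1*/*Tgfb3* and *Ltbp2*/*Ltbp1* do not overlap between labels, while *Tgfb2*/*Tgfb3* (means −2.61 and −2.80) and *Tgfbr2*/*Tgfbr1* (0.82 and 1.07) do.

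Levels of different genes were compared as CPM per kilobase of annotated exon. In control-labelled libraries the order was *Tgfb3* at 43.1 ± 3.20, *Ltbp3* at 34.9 ± 1.37, *Ltbp4* at 29.1 ± 4.35, *Tgfb1* at 27.4 ± 2.11, *Tgfbr2* at 25.3 ± 1.27, *Ltbp2* at 19.2 ± 2.30, *Tgfbr1* at 14.4 ± 1.67, *Tgfbr3* at 11.8 ± 1.39, *Ltbp1* at 8.25 ± 0.474 and *Tgfb2* at 7.08 ± 0.837 CPM per kilobase (SD, n = 5). *Ltbp4* and *Tgfb1* could not be ordered, since *Ltbp4* was the higher of the pair in 2 of the 5 controls. The steps from *Ltbp3* to *Ltbp4* and from *Tgfbr1* to *Tgfbr3* held in 4 of 5 controls and the other steps in 5 of 5. In mutant-labelled libraries the mean of *Tgfb1*, at 22.8 ± 2.25, was behind those of *Tgfbr2* (27.5 ± 2.09) and *Ltbp2* (24.9 ± 3.06). *Tgfb1* was below *Tgfbr2* in every mutant-labelled library and above it in every control-labelled library. Its order with *Ltbp2* did not hold by library, since *Tgfb1* was the higher in mutant-labelled replicates 2 (20.3 against 20.1) and 5 (26.4 against 23.9). The order depends on the length used. With the longest annotated transcript as length, *Ltbp3* (55.3) and *Tgfb1* (53.6) were ahead of *Tgfb3* (43.1) in controls, while in mutants *Tgfb1* (44.6 ± 4.41) and *Tgfb3* (45.9 ± 4.96) differed by less than their spread. The exons of *Tgfb1* and *Ltbp3* sum to 5042 and 9069 bases over all transcripts but to 2573 and 5729 in the longest one. On that length *Tgfb1* was above *Tgfbr2* under both labels, at 53.6 against 25.6 in controls and 44.6 against 27.8 in mutants, so their change of order depends on the length used. The mean of *Tgfb1* in mutants was then also above that of *Ltbp2*, at 44.6 against 30.1.

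**Figure D4:**
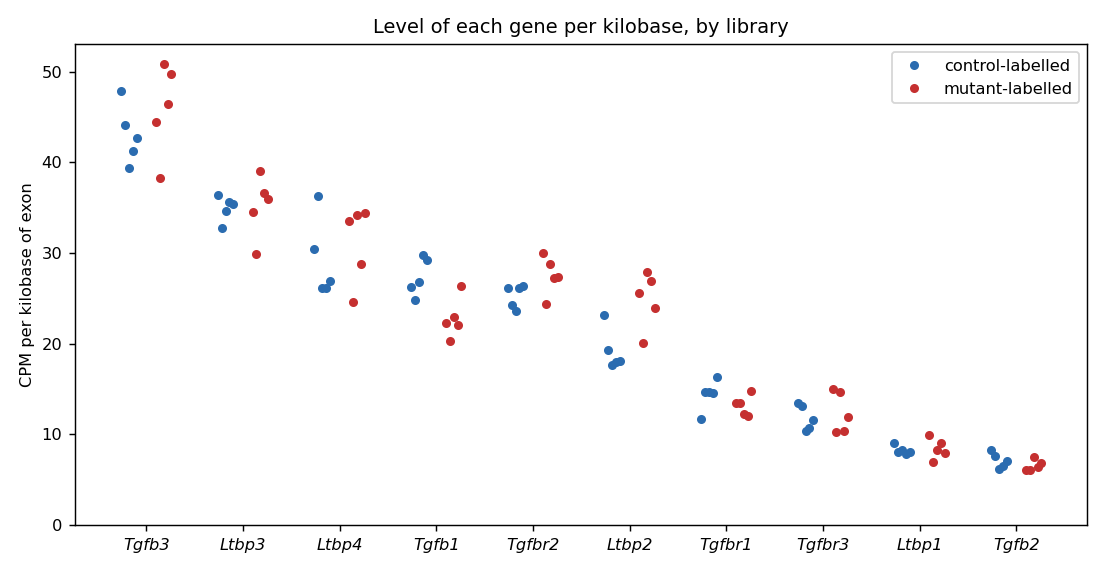
CPM per kilobase of exon (vertical axis, from 0) of each gene in the control-labelled (blue) and mutant-labelled (red) libraries, in the order of the control-labelled means. Levels run from 43.1 for *Tgfb3* to 7.08 for *Tgfb2* in controls, and on this length, though not on that of the longest transcript, *Tgfb1* and *Tgfbr2* exchange places between labels.

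One library had a large part in the spread. Mutant-labelled replicate 2 was the lowest of its group for 9 of the 10 members, all but *Tgfbr1*. It also had the highest neuron and glia markers and the lowest summed fibrous (6372 CPM) and osteoblast (54501 CPM) markers of the 10 libraries. *Col3a1* (4944 CPM) and *Col1a1* (48579.7 CPM) made up most of those sums. By mean log2 score the library was the lowest for osteoblast markers (8.14) but not for fibrous ones, at 7.07 against 7.02 in control-labelled replicate 3. Without mutant-labelled replicate 2, the unadjusted p-value from edgeR was under 0.05 for 4 members rather than 2 (1115 of 16413 genes tested in that fit), with *Tgfb3* (log2 fold change 0.16, unadjusted p = 0.0378) and *Tgfbr2* added. Without that library and the 2 high in muscle markers there were also 4 (beside 1216 of 16511 genes), *Tgfb1* (−0.23), *Ltbp2* (0.45), *Tgfb3* (0.20) and *Ltbp4* (0.25, unadjusted p = 0.0162, adjusted p = 0.536). The part of neural RNA in this was not tested. No library of any member stood apart from its group of 5 by Dixon's test, over 22 groups that include *Fgfr2*.

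Beyond the members, 4 lists of TGF-beta pathway genes were read in the same fit, which together hold 72 genes, 71 of them tested. None passed an adjusted p-value of 0.05 in edgeR, and 11 were at an unadjusted p-value under 0.05, 3 higher and 8 lower, or 15.5% against 7.49% of all genes tested. Their median log2 fold change was −0.0157.

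In the list for activation and matrix anchoring, 4 of 21 genes tested were at an unadjusted p-value under 0.05, with a list median of −0.0273. *Fbn2*, a fibrillin of the microfibrils to which LTBPs attach, was at 225 to 323 CPM under the control label and 305 to 519.9 CPM under the mutant label (log2 fold change 0.46, adjusted p = 0.454 from edgeR). *Thbs1*, whose product thrombospondin-1 can activate latent TGF-beta, was at 164 to 255 and 198 to 314 CPM (log2 fold change 0.44, adjusted p = 0.522). *Thbs2*, its relative without that activity, was at 1079 to 1382 and 1128 to 1688 CPM (0.28, adjusted p = 0.639). These 3 genes were higher by label while *Itgb3*, a partner of integrin alpha-V, was lower, at 80.4 to 129 and 75.7 to 97.1 CPM (−0.30, adjusted p = 0.634). With the fibrous score as a covariate, *Thbs1*, *Thbs2*, *Fbn2* and *Itgb3* were at 0.00, −0.04, 0.12 and −0.11, and with the osteoblast score they were at 0.24, 0.23, 0.18 and −0.25. *Itgb6* was at 0 to 12 counts per library and was not tested, and *Itgb8* was at 1.41 to 5.94 CPM.

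Of 15 co-receptors, extracellular binders and receptor regulators, 2 were at an unadjusted p-value under 0.05, both lower, with a list median of −0.00186. *Cd109*, a membrane co-receptor that dampens TGF-beta signalling, was at 177 to 206 CPM in controls by label and at 129 to 177 CPM in mutants by label. The groups met at 177 CPM without crossing (log2 fold change −0.36, SE 0.0844, adjusted p = 0.321 from edgeR; two-sided exact permutation test, p = 0.00794, which is the minimum for this design). DESeq2's Wald test gave *Cd109* an adjusted p-value of 0.0245, the one pathway gene it called, and with the osteoblast score as a covariate its log2 fold change was −0.09. *Bambi*, a pseudoreceptor, was at 41.5 to 52.4 and 34.2 to 47.2 CPM (−0.25, adjusted p = 0.631), and at 0.12 with the osteoblast score.

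None of the 16 SMADs and SMAD regulators was at an unadjusted p-value under 0.05, and the list median was 0.0199. *Smad2* was at 31.0 to 35.4 CPM under the control label and 33.3 to 36.7 CPM under the mutant label. *Smad3* was at 79.9 to 85.0 and 69.4 to 85.8 CPM. The inhibitory *Smad7*, itself induced by the pathway, was at 32.9 to 41.3 and 29.2 to 41.3 CPM. All 3 overlapped between labels.

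Of 23 target genes tested, 5 were at an unadjusted p-value under 0.05, all of them lower by label, with a list median of −0.0721. *Cdkn1a*, which encodes the cell cycle inhibitor p21, was at 55.4 to 69.8 CPM under the control label and 39.7 to 57.0 CPM under the mutant label (log2 fold change −0.37, adjusted p = 0.348 from edgeR). *Timp1*, an inhibitor of matrix metalloproteases, was at 63.2 to 73.9 and 43.6 to 68.4 CPM (−0.38, adjusted p = 0.454). *Bhlhe40* was at 52.2 to 60.7 and 42.1 to 58.3 CPM (−0.23, adjusted p = 0.622), and *Tgfbi* had a log2 fold change of −0.23 (adjusted p = 0.659). With the osteoblast score as a covariate *Cdkn1a* and *Timp1* were at −0.12 and 0.02, and over the 4 lists the unadjusted p-value was then under 0.05 for 1 gene rather than 11, and over all genes for 502 rather than 1219.

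**Figure D5:**
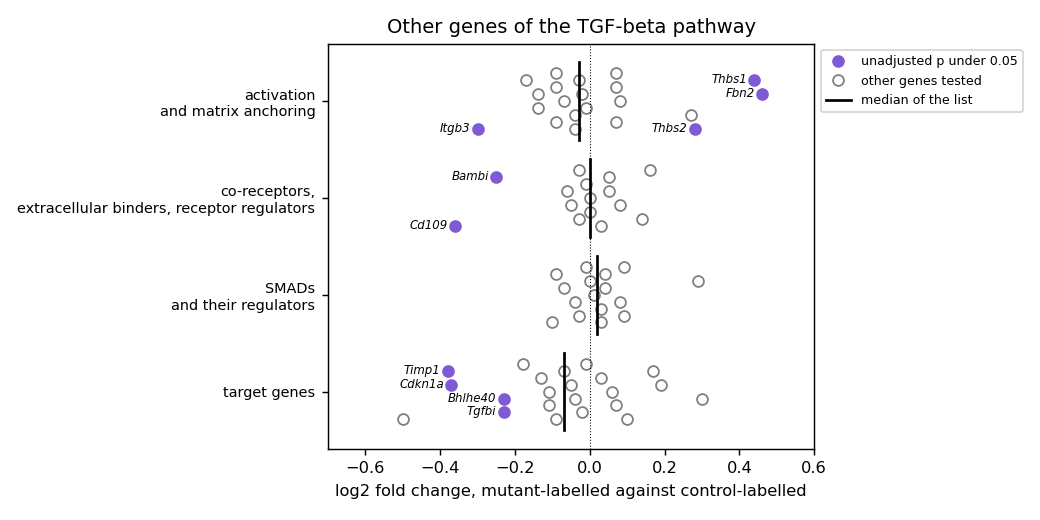
Log2 fold change (horizontal axis, mutant-labelled against control-labelled) of the pathway genes tested, by list, with filled points for an unadjusted p-value under 0.05, open points for the others and a black line at the list median; vertical scatter within a list has no meaning, and 1 target gene is not drawn. The 4 filled target genes drawn all lie below 0, 3 of the 4 filled genes for activation and anchoring lie above 0, and the SMAD list has none.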

How the data were processed

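Stranded libraries of total RNA were sequenced by the authors as single reads, and per the labels the notes name Partek and mm10. The aligner, counting tool, strand setting and filter are not given in the sources used here. What the authors deposited is a table of estimated counts, 1 row a gene, not scaled between libraries, of which 66.4% are whole (exactly, with no tolerance). Of 22533 symbols found in GENCODE M21 (GRCm38), 22296 had its start and end (the end as written or 1 base lower), and M21 coordinates and exon lengths are given.

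Estimated counts were rounded, filtered by edgeR's expression filter (6813 genes left out), normalized by TMM (factors 0.90 to 1.13) and compared over all 10 libraries by the quasi-likelihood test without pairing or covariate, with Benjamini-Hochberg adjustment over 16267 genes (R 4.3.3, edgeR 4.0.16, limma 3.58.1, DESeq2 1.42.0). Log2 CPM used a prior count of 0.5. The fit was tested on simulated data. Exact permutation tests covered all 252 groupings. The pairs of littermates are not identified and the number of litters is not stated, so the fit is unpaired and p-values measure the spread between these embryos.

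Members, gene lists and marker lists were chosen with earlier results of these data known. Named are all members, *Fgfr2*, the first 4 genes of each pathway list by unadjusted p-value under 0.05 (*Tgfbi*, *Smad2*, *Smad3*, *Smad7*, *Itgb6* and *Itgb8* are outside this rule and were named after their values were seen), and for each member the 2 genes most like it. The markers *Scx*, *Tnmd*, *Mkx*, *Matn4*, *Pdgfra*, *Col3a1* and *Col1a1* were also named after their values were seen. A few genes that the rule or the annotation gave are not reported here, though counts and medians of lists include them. Promoter windows are RefSeq's (GRCm38.p6), matched by symbol for 8 of the 10 members. Alternatives were other normalizations, tests and filters, a replicate block, covariates, another threshold, other gene lengths and leaving out libraries. Leaving out 3 libraries high in neuron or muscle markers, and all counts at an unadjusted p-value under other settings, were added after the data were seen.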

Additional observations from a re-analysis of the deposited data

How the results depend on the processing

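No member passed an adjusted p-value of 0.05 under any of the 23 alternative settings of the model, the lowest adjusted p-value being 0.0514 for *Ltbp2* (DESeq2's Wald test), and with the replicate block the adjusted p-value was 0.483 for *Tgfb1* and 0.555 for *Ltbp2*. *Tgfb1* stayed negative (−0.32 to −0.02) and *Ltbp2* positive (0.08 to 0.45) in all 23. At an unadjusted threshold there were 2 members, 11 pathway genes and 1219 genes in all. The count of 3 genes called became 1 with library size alone, with the replicate block (numbers that no source ties to the littermate pairs), with the endothelium score and with *Xist* as covariate, 0 with the osteoblast score (502 genes at an unadjusted p-value under 0.05) and 95 with DESeq2's Wald test, which called 1 pathway gene and was run with its own size factors and filter on all 23080 genes. Leaving out one library gave 1 to 6, with 1 without control-labelled replicate 3, 4 or 5 or mutant-labelled replicate 1, 3, 4 or 5, and 6 without mutant-labelled replicate 2. Without the 3 libraries high in neuron or muscle markers there were 6, with 4 members at an unadjusted p-value under 0.05. That count of members was 0 with the osteoblast score and 2 to 4 with one library left out. The 11 pathway genes became 1 with the osteoblast and 19 with the fibrous score (2111 of all genes), and 7 to 13 with one library left out (7 when either replicate 4 was dropped).

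Same-numbered libraries did not deviate together (correlations of deviations from group means −0.21 to 0.14, highest for replicate 2).

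Several estimates changed sign, among them *Thbs2* (0.28), *Bambi* (−0.25) and *Timp1* (−0.38), which were not near 0. With the fibrous score *Tgfb3* was at −0.13, *Tgfbr2* at −0.01, *Tgfbr3* at −0.23, *Ltbp1* at −0.21, *Ltbp3* at −0.14, *Ltbp4* at −0.21 and *Thbs2* at −0.04. With the osteoblast score *Ltbp1* was at −0.04, *Bambi* at 0.12 and *Timp1* at 0.02. With library size alone, which shifted the median of all genes by −0.0382, *Ltbp1* was at −0.01 and *Ltbp3* at −0.03. With one library left out *Ltbp1* ranged from −0.03 (mutant-labelled replicate 1 dropped) to 0.09 and *Ltbp3* from −0.02 (mutant-labelled replicate 3 dropped) to 0.07, being at 0.00 when control-labelled replicate 2 was dropped. *Fgfr2* stayed positive (0.49 to 0.84), with an adjusted p-value under 0.05 in 8 of the 23. The cause was not tested. Without length scaling *Tgfb3* was 44.9% and 50.4% of ligand counts by label and *Tgfb1* 42.5% and 37.3%. Members had 760 counts or more in every library, and the parts of embryo, dissection and tissue content in the spread between libraries were not tested.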

Other observations

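For each member the 2 genes with the most similar pattern were sought among 14478 genes of at least 1 CPM, by Pearson's correlation of log2 CPM over the 10 libraries after the mean of each group was subtracted. These are the highest of many correlations over few libraries that share depth and normalization, and are given with no p-value. *Tgfb1* was most like *Dap* (r = 0.964, Spearman's rho = 0.988) and *Cd109* (r = 0.948, rho = 0.939), the latter being the TGF-beta co-receptor gene of the pathway lists. *Tgfb3* was most like *Bace1* (r = 0.969, rho = 0.927) and *Plod1* (r = 0.963, rho = 0.939), a collagen lysyl hydroxylase. *Tgfb2* was most like *Ptprd* (r = 0.944, rho = 0.964) and *Usp47* (r = 0.933, rho = 0.939).

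The WNT receptor genes *Fzd1* and *Fzd2* came up beside LTBP genes. *Fzd1* did so for *Ltbp2* (r = 0.953, rho = 0.927), with *Kpnb1* at r = 0.937 and rho = 0.927. *Fzd2* did so for *Ltbp4* (r = 0.964, rho = 0.879), with *Trappc12* at r = 0.964 and rho = 0.891. *Ltbp3* was most like *Man2b2* (r = 0.979, rho = 0.879) and *Efemp2* (r = 0.961, rho = 0.794), the latter encoding fibulin-4, an elastic fibre protein. *Ltbp1* was most like *Il1rl2* (r = 0.944, rho = 0.867) and *Chrd* (r = 0.915, rho = 0.818), which encodes the BMP antagonist chordin. Among the receptors *Tgfbr1* was most like *Ptrhd1* (r = 0.944, rho = 0.758) and *C77080* (r = 0.930, rho = 0.915). *Tgfbr2* was most like *Naaa* (r = 0.960, rho = 0.903) and *Gm14230* (r = 0.951, rho = 0.915). *Tgfbr3* was most like *Tmem132c* (r = 0.977, rho = 0.952) and *Gbf1* (r = 0.972, rho = 0.952).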
